A study of Homo sapiens with 6 samples.

Results

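Methylation of lysine 9 on histone H3 (H3K9) marks silenced chromatin, and this account follows the genes of the enzymes that write the mark, their cofactors and the proteins that read it. The genes were Setdb1, its cofactors Atf7ip and Trim28, the methyltransferase genes Suv39h1, Suv39h2, Ehmt1 and Ehmt2, and the HP1 genes Cbx1, Cbx3 and Cbx5. They were chosen by symbol, and all 10 were found among the 22989 genes of the deposited count table. The RNA-seq data comprise 3 LINC00115 KD and 3 WT libraries, described as MDA-MB-231 PTX-resistant BCSC. MDA-MB-231 is a human breast cancer line without hormone receptors and without excess of the receptor HER2, encoded by Erbb2 (triple-negative). PTX-resistant means resistant to paclitaxel, and BCSC are the stem-like cells of this line, sorted for aldehyde dehydrogenase activity. The KD cells are described as depleted of the long non-coding RNA LINC00115 with a short hairpin RNA. The study's figure of these data names a single hairpin. The KD column names overlap with its names for different hairpins, so the hairpin of each library is not certain. Effects of a hairpin on other RNAs were not tested. Every library, WT included, is described as coming from the PTX-resistant cells. Whether the WT cells carry a control hairpin, as the control cells of the study do, is not given in the labels. The labels do not say whether the replicates were separate cultures or whether the KD cells were 1 clone, so p-values measure the spread between these libraries, which may be technical.

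SETDB1 is one of the proteins pulled down with LINC00115 in the study, which describes LINC00115 as a link between SETDB1 and the kinase PLK3. That is a statement about proteins, and the comparison here asks whether the mRNA of SETDB1 and of the machinery around it differed between the groups. In textbook terms, the SUV39H enzymes trimethylate H3K9 at pericentromeric repeats, and EHMT1 (GLP) and EHMT2 (G9a) work as a pair that mono- and dimethylates H3K9 in gene-rich chromatin. SETDB1 is brought to DNA by TRIM28, which binds KRAB zinc finger proteins, and is stabilised in the nucleus by ATF7IP. The HP1 proteins bind methylated H3K9 and compact the chromatin.

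The libraries held between 36979221 and 38799331 counts, and no library was a copy of another, since the chi-square per degree of freedom was 3.88 to 7.60 for pairs within a group, where sampling alone gives about 1. The labels give the organism as human, but the table carries mouse gene names. Of its 22989 symbols, 21212 are in mouse style, with 4648 Gm names and 1129 Rik names. Whether the libraries come from the labelled human line was not tested. The table has 0 rows named LINC00115. The depletion could therefore not be checked, and each direction rests on the group labels. Of 8 markers fixed for the labelled line, Vim, Cd44, Itga6, Krt8 and Krt18 were well counted, whereas Aldh1a3 had at most 4 counts, Epcam at most 5 and Krt19 at most 7 in any library. Vim, Krt8 and Krt18 were higher in KD (log2 fold change 0.13, 0.67 and 0.87), Itga6 was lower (−0.44) and Cd44 did not pass. Of the 3 genes of the receptors by which triple-negative cells are defined, Pgr had at most 3 counts. Esr1 had 24 to 29 counts in WT and 82 to 105 in KD (log2 fold change 1.87). Erbb2 had 592 to 689 in WT and 1029 to 1061 in KD (0.70), and both were higher in KD by the test. All 5 lung epithelium markers had 0 counts in every WT library, and so could pass the expression filter only through the KD group. Their sum lay between 62.3 and 74.4 normalized CPM (counts relative to the TMM-scaled depth of the library) in the KD libraries. The sum of 5 kidney tubule markers was 15.6 to 18.2 CPM in WT and 37.1 to 41.1 in KD. Of these, Kap, Umod and Slc34a1 had at most 1 count in a WT library, Aqp1 was higher and Cubn lower. The sum of 8 leukocyte markers was 71.6 to 85.7 in WT and 144 to 159 in KD, most of it S100a8 (33.0 CPM on average in WT and 95.2 in KD) and Cd68, which did not pass. Lyz2 (0.795 CPM on average in WT and 6.58 in KD) and Cd74 (0.928 and 3.27) were also higher, by more than 2-fold. S100a9 had at most 2 counts in a WT library and passed the filter only through the KD group, Ptprc had 5 to 13 counts, and Cd3e 0 throughout. The sum of 5 endothelium and fibroblast markers was 4.29 to 5.60 in WT and 58.4 to 62.0 in KD, a difference carried by Cdh5 alone (0.221 CPM on average in WT and 57.8 in KD), while Dcn was lower, Pecam1 and Col1a1 did not pass and Kdr had at most 10 counts. With at least 10 counts asked of every library, the markers called higher were 0 for lung, 1 for kidney, 2 for leukocytes and 0 for endothelium and fibroblasts. That filter removes the lung markers, Kap, Umod, Slc34a1, S100a9 and Cdh5 before the test, because their WT counts are too low. The numbers called under it therefore say nothing about those genes. The part of lung, kidney, leukocyte, endothelium or fibroblast cells in the results that follow was not tested. In bulk RNA, fewer cells of a type and less RNA per cell cannot be told apart.

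Of the 10 genes, 5 were lower in the libraries labelled LINC00115 KD (Setdb1, Suv39h1, Ehmt2, Cbx1 and Cbx5), 2 were higher (Trim28 and Atf7ip) and 3 did not pass (Suv39h2, Ehmt1 and Cbx3). A gene was called where the Benjamini-Hochberg adjusted p of edgeR's quasi-likelihood test, over 13497 genes, was below 0.05. Under this rule 73.4% of all genes tested were called, 36.7% lower and 36.7% higher, so 7 of 10 is near the share of the whole table. The called genes differed between 1.15-fold and 1.54-fold. None of the 10 reached the fold change over 2 that the study also asked for, which 20.2% of all genes passed (9.98% lower, 10.2% higher). Of the 10, 8 were under an unadjusted p of 0.05 in edgeR, as were 10114 of the 13497 genes tested. DESeq2 called 7 of the 10 at an adjusted p under 0.05 and 0 past 2-fold. Among all 22406 genes with a count, DESeq2 called 4860 lower and 5143 higher, of which 1471 and 1666 were past 2-fold. Libraries of the groups did not overlap for the same 7 genes, as for 75.6% of all genes tested. The size of the change was below that of the median gene (0.45 on the log2 scale, in either direction) for 9 of the 10, Ehmt2 being the exception. The median log2 fold change of the 10 was −0.18, beside −0.0061 over all genes tested.

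**Figure D1:**
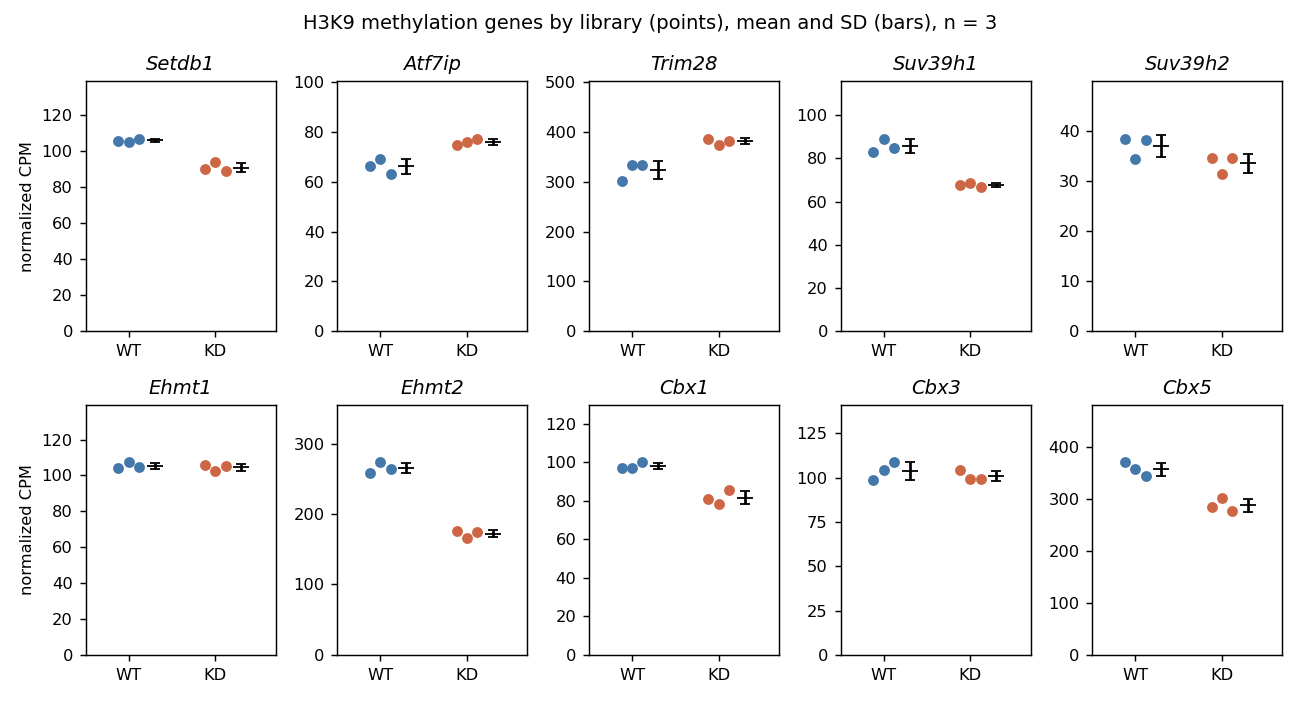
Normalized CPM (vertical axes, each from 0) of the 10 genes in the 3 WT libraries (blue) and the 3 LINC00115 KD libraries (orange), with the mean and SD beside the points. The groups do not overlap for 7 genes and do overlap for Suv39h2, Ehmt1 and Cbx3.

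Setdb1 had 106, 105 and 107 normalized CPM in WT replicates 1 to 3 and 89.7, 93.6 and 88.5 in KD replicates 1 to 3. The WT libraries had an SD of 0.789 CPM and the KD libraries one of 2.63 CPM, and every KD library was below every WT library. The log2 fold change was −0.22 (standard error 0.04, adjusted p = 2.46e-05, edgeR), so Setdb1 mRNA fell by 14.3%, with a 95% interval from −19.4% to −8.92%. Of all genes tested, 26.8% had a smaller absolute log2 fold change. The change exceeded the spread between replicates, and it was smaller than most changes in the table.

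Both cofactors of SETDB1 went the other way. Atf7ip had 66.2, 69.2 and 63.3 CPM in WT and 74.6, 75.9 and 77.2 in KD, an increase of 14.6% (log2 fold change 0.20, standard error 0.05, adjusted p = 0.000587, edgeR). Trim28, the scaffold between KRAB zinc finger proteins, SETDB1 and HP1, had 302, 335 and 334 CPM in WT and 387, 375 and 383 in KD, an increase of 17.9% (log2 fold change 0.24, standard error 0.04, adjusted p = 5.23e-07, edgeR). For each of them the lowest KD library was above the highest WT library, and the WT libraries of Trim28 were more spread (SD 18.5 CPM) than its KD libraries (SD 5.91), replicate 1 being the low one.

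Within a library, the ratio of counts between 2 genes does not depend on scaling. The Setdb1 to Atf7ip ratio was 1.59, 1.52 and 1.68 in the WT libraries and 1.20, 1.23 and 1.15 in the KD libraries. For Setdb1 to Trim28 it was 0.349, 0.314 and 0.319 in WT and 0.232, 0.249 and 0.231 in KD. Setdb1 counts were thus lower relative to either cofactor in every KD library than in any WT library. These ratios mix the lengths of both genes, so their level is no measure of how many molecules of each were present, and the ratios carry no test.

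**Figure D2:**
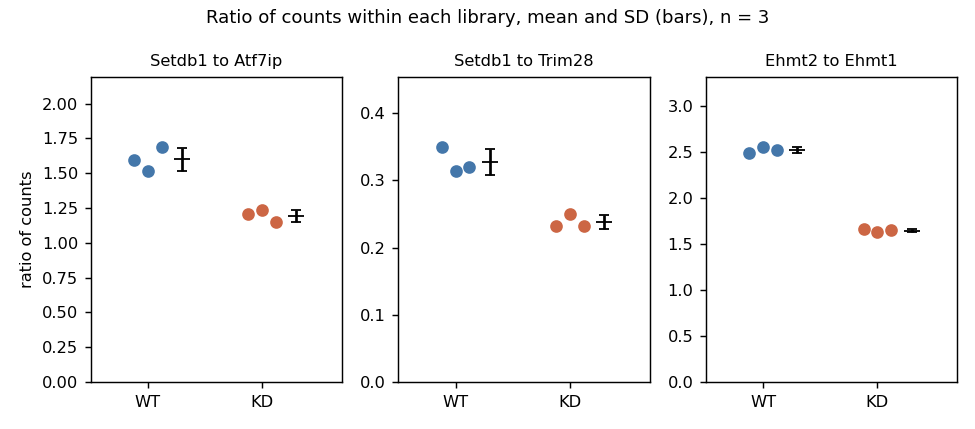
Ratio of counts between 2 genes of the same library (vertical axes, each from 0) in WT (blue) and LINC00115 KD (orange), with the mean and SD beside the points. The mean Setdb1 to Atf7ip ratio is 1.60 in WT and 1.19 in KD, and the mean Ehmt2 to Ehmt1 ratio is 2.52 and 1.64.

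Ehmt2, which encodes G9a, moved most of the 10. Its level was 259, 273 and 264 CPM in WT and 175, 166 and 174 in KD, with SDs of 7.29 and 4.95, and every KD library lay far below the WT libraries. Ehmt2 mRNA fell by 35.2% (log2 fold change −0.63, standard error 0.04, adjusted p = 5.87e-17, edgeR), with a 95% interval from −38.5% to −31.8%. A smaller absolute change was found in 62.5% of all genes tested.

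Ehmt1, the gene of its partner GLP, had 104, 107 and 105 CPM in WT and 106, 102 and 105 in KD. These values overlapped, and the log2 fold change of −0.013 did not pass (adjusted p = 0.796, edgeR). The 95% interval ran from −6.57% to 5.18%, so a change of Ehmt1 as large as that of Ehmt2 lies outside it. Its sign turned without WT replicate 2 (0.0016) and without KD replicate 2 (0.012).

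The counts of the pair shifted accordingly. Ehmt1 took 28.7%, 28.2% and 28.4% of the Ehmt1 and Ehmt2 counts in WT and 37.6%, 38.1% and 37.8% in KD. This is 28.4% ± 0.254 against 37.8% ± 0.265 (SD, n = 3 each), a difference of 9.38 percentage points, for which the exact two-sided permutation test gave p = 0.1, the smallest value that 3 libraries against 3 allow.

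Suv39h1 had 82.8, 89.1 and 85.0 CPM in WT and 67.7, 68.8 and 67.0 in KD. All KD libraries were below all WT libraries, and Suv39h1 fell by 20.8% (log2 fold change −0.34, standard error 0.05, adjusted p = 1.00e-07, edgeR). Suv39h2, the second gene for this activity, was counted least of the 10, with 1149 to 1447 counts a library. Its level was 38.4, 34.4 and 38.1 CPM in WT and 34.6, 31.3 and 34.6 in KD. WT replicate 2 lay among the KD libraries, and the log2 fold change of −0.14 (standard error 0.07) did not pass (adjusted p = 0.0551, edgeR). It did pass without WT replicate 2 (log2 fold change −0.19, adjusted p = 0.0205, edgeR), while the log2 fold change was −0.086 without KD replicate 2, and over all alternatives the adjusted p lay between 0.0157 and 0.291. The share of Suv39h1 in the counts of both was 69.8% ± 2.05 in WT and 66.9% ± 1.55 in KD (SD, n = 3 each), with overlapping libraries (exact two-sided permutation p = 0.2). The difference of −2.90 percentage points became −1.74 without WT replicate 2. A difference between the paralogs was therefore not shown.

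**Figure D3:**
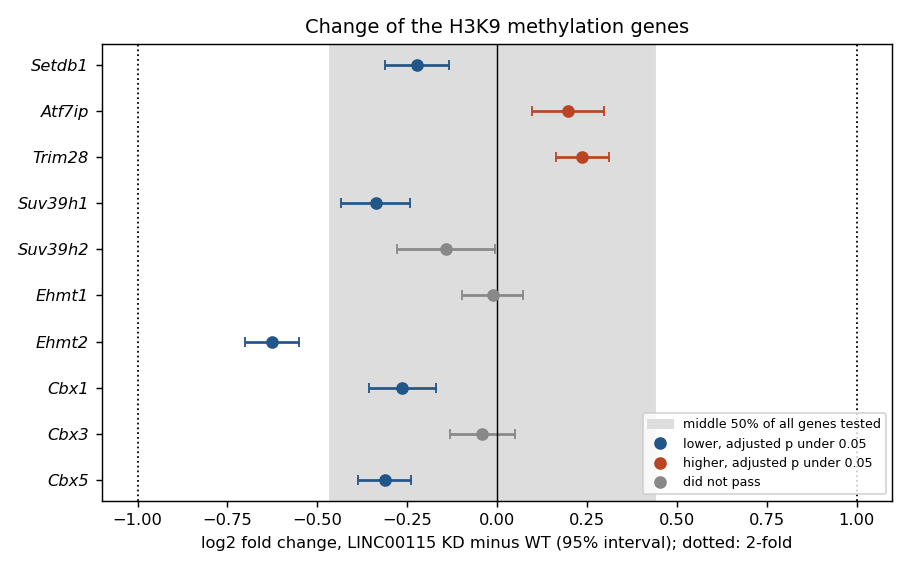
Log2 fold change (horizontal axis, KD minus WT) of each of the 10 genes with its 95% interval, coloured by the call. The grey band holds the middle 50% of all 13497 genes tested, and only Ehmt2, at −0.63, lies outside it. Dotted lines mark a fold change of 2, which none of the 10 reaches.

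The 3 HP1 genes did not go together. Cbx5, which encodes HP1α, had 370, 356 and 345 CPM in WT and 285, 302 and 276 in KD, and fell by 19.5% (log2 fold change −0.31, standard error 0.04, adjusted p = 2.12e-09, edgeR). Cbx1, which encodes HP1β, had 97.0, 96.9 and 99.8 CPM in WT and 80.9, 78.4 and 85.4 in KD, and fell by 16.7% (log2 fold change −0.26, standard error 0.05, adjusted p = 4.18e-06, edgeR). For both genes the groups were apart.

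Cbx3, which encodes HP1γ, had 98.3, 104 and 108 CPM in WT and 104, 99.1 and 99.3 in KD. Its WT libraries enclosed all KD libraries, and the log2 fold change of −0.041 did not pass (adjusted p = 0.421, edgeR), with a 95% interval from −8.74% to 3.57%. Single libraries set this small value, which lay between −0.078 (without WT replicate 1) and −0.0057 (without WT replicate 3), and was −0.019 without KD replicate 2 and −0.022 without KD replicate 3. A pseudogene row, Cbx3-ps5, had at most 5 counts in any library, so few reads were counted there, although how reads shared with other copies were treated is not known.

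Of the counts of the 3 HP1 genes, Cbx3 took 17.4%, 18.7% and 19.6% in WT and 22.2%, 20.7% and 21.6% in KD, without overlap (exact two-sided permutation p = 0.1, the smallest possible). The share of Cbx5 was 63.9% ± 1.56 in WT and 61.2% ± 1.59 in KD (SD, n = 3 each), with overlap (exact permutation p = 0.2). That of Cbx1 was 17.5% ± 0.465 and 17.4% ± 1.09 (exact permutation p = 0.9), and its difference changed sign without WT replicate 3 (0.104 percentage points) and without KD replicate 2 (0.345). Of the 3 shares, that of Cbx3 was the one without overlap between the groups.

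**Figure D4:**
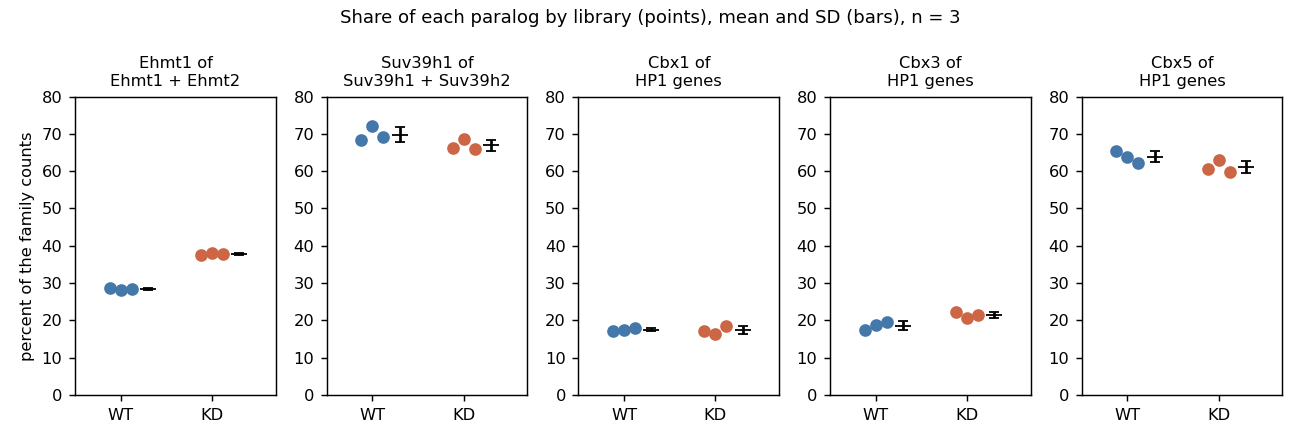
Percent of the counts of a gene family that fell on each paralog (vertical axes, 0 to 80%), by library, in WT (blue) and LINC00115 KD (orange), with the mean and SD beside the points. The groups are apart for Ehmt1 (28.4% and 37.8%) and Cbx3 (18.6% and 21.5%) and overlap for Suv39h1, Cbx1 and Cbx5.

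A list of 7 genes that work with SETDB1 held the HUSH complex, which recruits SETDB1 and spreads H3K9 trimethylation over repeats, and other partners. Of the 7, 3 were higher, 2 lower and 2 did not pass, where 73.4% of all genes tested passed, with a median log2 fold change of 0.32 beside −0.0061 over all genes. Pphln1, which encodes the HUSH subunit periphilin, was at 81.4 ± 4.02 CPM in WT and 117 ± 3.70 in KD (SD, n = 3 each), which is 0.53 on the log2 scale (adjusted p = 1.77e-12, edgeR). Morc2a, the ATPase that acts with HUSH, rose by 0.37 on the log2 scale (adjusted p = 2.24e-10, edgeR) and Tasor, the scaffold of the complex, by 0.32 (adjusted p = 0.000316, edgeR). The HUSH chromodomain gene Mphosph8 had a log2 fold change of 0.096 that did not pass (adjusted p = 0.251, edgeR). Mbd1, whose protein binds methylated DNA and SETDB1, was lower (log2 fold change −0.22, adjusted p = 0.00087, edgeR). The other lower gene was Zfp638, chosen for mention after its value was seen, at −0.13. It did not pass without WT replicate 2 (adjusted p = 0.0858, edgeR), KD replicate 1 (0.0801) or KD replicate 2 (0.0831), and its adjusted p was 0.0152 with all libraries.

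All 3 genes listed as partners of EHMT1 and EHMT2 passed the test, as did 73.4% of all genes tested, and they went in both directions. Wiz, a zinc finger protein that holds the EHMT pair on chromatin, fell by 0.37 on the log2 scale (81.9 ± 5.47 to 63.3 ± 2.41 CPM, SD, n = 3 each, adjusted p = 8.97e-08, edgeR). Zfp644, its counterpart in the same complex, rose by 0.25 (adjusted p = 0.000223, edgeR), and Cdyl, a chromodomain corepressor that binds EHMT2, rose by 0.50 (adjusted p = 1.17e-07, edgeR). Of 4 other H3K9 methyltransferase genes, 3 were tested. Mecom was lower (5.01 ± 0.724 to 0.989 ± 0.355 CPM, SD, n = 3 each, log2 fold change −2.34, adjusted p = 8.33e-10, edgeR), Prdm2 was higher (0.18, adjusted p = 0.000146, edgeR), and Setdb2, the nearest relative of Setdb1, had only 4 to 28 counts a library and did not pass (adjusted p = 0.334, edgeR).

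Of 15 partners of HP1 and TRIM28, 7 were lower, 5 higher and 3 did not pass, with a median of −0.066. The share called is near the 73.4% of all genes tested. Chaf1a, the large subunit of the histone chaperone CAF-1 that binds HP1 at replicating heterochromatin, had 194 ± 4.41 CPM in WT and 105 ± 2.10 in KD (SD, n = 3 each), which is −0.88 on the log2 scale (adjusted p = 1.77e-20, edgeR). Uhrf1, which reads H3K9 methylation during replication to keep DNA methylated, fell by 0.72 on the log2 scale (309 ± 3.96 to 188 ± 2.49 CPM, adjusted p = 1.93e-19, edgeR). The deacetylase gene Hdac1 fell by 0.69 (adjusted p = 7.76e-16, edgeR). Adnp, which joins HP1 and CHD4, was higher by 0.69, from 6.80 ± 0.908 to 11.0 ± 0.468 CPM (SD, n = 3 each, adjusted p = 9.62e-06, edgeR).

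The enzymes that remove the mark are the H3K9 demethylases. Of their 11 genes, 9 were lower, 1 was higher and 1 did not pass, where 36.7% of all genes tested were lower and 36.7% higher, with a median log2 fold change of −0.34, and the difference of this list from the others was not tested. Kdm3a fell from 166 ± 5.31 to 63.7 ± 0.595 CPM (log2 fold change −1.38, adjusted p = 6.21e-25, edgeR) and Kdm4b from 72.6 ± 2.65 to 24.7 ± 0.392 CPM (log2 fold change −1.56, adjusted p = 1.23e-22, edgeR; SD, n = 3 each). Both are known as genes that HIF1 induces in hypoxia, and the part of HIF1 in their fall was not tested. Phf2 was the higher one, from 90.5 ± 3.48 to 145 ± 0.942 CPM (log2 fold change 0.68, adjusted p = 2.33e-16, edgeR). Kdm4d, with 5 to 38 counts a library, had a log2 fold change of −1.58 (adjusted p = 0.0153, edgeR), which did not pass without WT replicate 1 (adjusted p = 0.175, edgeR) or without KD replicate 2 (0.0776).

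**Figure D5:**
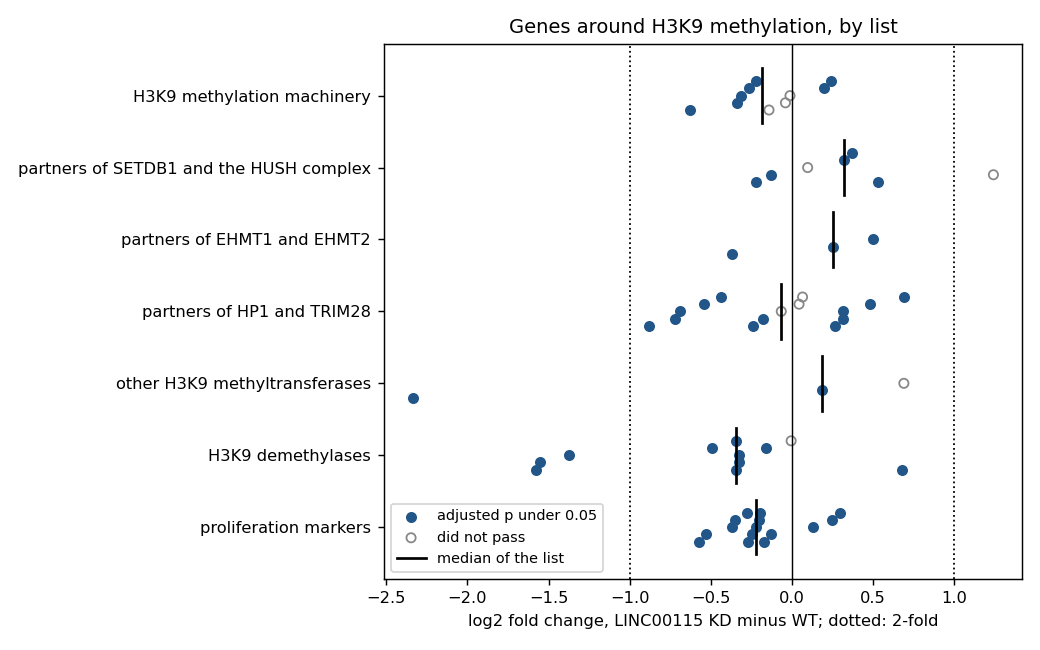
Log2 fold change (horizontal axis, KD minus WT) of each tested gene of 7 lists (vertical axis), filled where the adjusted p was under 0.05, with the median of the list as a black bar. The medians are −0.18 for the 10 machinery genes, −0.34 for the demethylases and −0.22 for the proliferation markers, and 0.32 for the SETDB1 and HUSH partners.

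Most proliferation markers moved in the same direction as Suv39h1, Cbx1, Cbx5, Chaf1a and Uhrf1, genes known to be expressed more in dividing cells. These genes were picked with their lower values known, so the shared direction is no test. Trim28 and Atf7ip were higher. Of 15 proliferation markers, 12 were lower and 3 higher, with a median log2 fold change of −0.22, where 36.7% of all genes tested were lower. Their summed level was 4911 to 5107 CPM in the WT libraries and 4197 to 4283 in the KD libraries, and no marker of the list was at 0. Mki67 fell by 0.57 on the log2 scale, Aurkb by 0.53, Cdk1 by 0.37 and Top2a by 0.35. The 3 higher ones were Ccnb1 (log2 fold change 0.30), Mcm6 (0.24) and Mcm5 (0.13), while Mcm2, Mcm3, Mcm4 and Mcm7 of the same helicase were lower. The lower count became 11 without KD replicate 2, where Mcm2 did not pass (adjusted p = 0.109, edgeR). The part of proliferation in the changes of the H3K9 methylation genes was not tested.

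Of 14 germline genes that H3K9 methylation keeps silent in somatic cells, 8 were listed in the table and 1, Tex101, passed the expression filter. It had 0 counts in every WT library and 40, 22 and 26 counts in the KD libraries, at least 9.46-fold above the limit of 3 counts a library, and it could pass the filter only through the KD group. The other 7 listed genes had at most 10 counts in any library and were not tested.

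Of the other genes in the axis that the study proposes around SETDB1, Plk3 was higher in the KD libraries (45.3 ± 2.23 to 143 ± 6.83 CPM, SD, n = 3 each, log2 fold change 1.66, adjusted p = 1.35e-25, edgeR). Hif1a (log2 fold change 0.40, adjusted p = 1.11e-12, edgeR) and Ythdf2 (0.36, adjusted p = 4.81e-08, edgeR) were higher too, and Alkbh5 was lower (−0.34, adjusted p = 9.13e-11, edgeR). All 4 passed, as did 73.4% of all genes tested. The study reports less HIF1α protein and faster HIF1α degradation after LINC00115 KD, and mRNA counts measure neither. It also measured HIF1α by qRT-PCR, for which its text gives no direction after KD, and it reports lower ALKBH5 expression.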

How the data were processed

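By the study's methods, adapters were trimmed and reads mapped with HISAT2 to hg19. The submitters' processing notes give hg38, and also name featureCounts and DESeq2. Both are human builds, while the Gm and Rik names of the count table belong to mouse genes. The counts therefore carry a mouse gene annotation, and the build behind them is not stated. The authors deposited 1 table of whole-number read counts for each gene, without normalization. Neither the version of the annotation nor the strand setting is given in the sources used here. All genes entered library totals, and no value column was left out. The test was edgeR 4.0.16 in R 4.3.3, with filterByExpr (minimum count 10, minimum total 15), TMM scaling, and the quasi-likelihood test of KD against WT with Benjamini-Hochberg adjustment over 13497 genes. Standard errors were derived from the F statistic. Normalized CPM use TMM-scaled totals. Paralog shares were compared by exact permutation tests, of which 5 were run (lowest Benjamini-Hochberg adjusted p 0.25, permutation). The pipeline was tested on simulated counts. Alternatives were 3 other scalings, 2 other filters, each library left out, a replicate block, DESeq2 1.42.0 and unadjusted p-values.

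The genes and the 14 other gene lists were chosen with earlier results of these data known. From each list, the genes named are up to 4 with the largest change past the test, and all genes of the proposed axis. Mphosph8, Zfp638, Setdb2, Cbx3-ps5, the MCM genes, Ccnb1 and the markers of cell types are named outside this rule, after their values were seen. A floor of 3 counts covers counting error only. No gene lengths of a matching annotation were used, so levels are not compared between genes, and no positions or sequences are given.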

Additional observations from a re-analysis of the deposited data

How the results depend on the processing

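The 5 lower and 2 higher genes of H3K9 methylation kept their direction and their call under every alternative run, with log2 fold changes of Setdb1 between −0.26 and −0.20. Suv39h2 passed the test with upper quartile scaling (log2 fold change −0.18), library size only (−0.16), the replicate block (−0.14) and an unadjusted p (−0.14), and with each replicate left out it ranged from −0.19 to −0.086. For Ehmt1 that range was −0.021 to 0.012, for Cbx3 −0.078 to −0.0057, and for the Cbx1 share of HP1 counts −0.740 to 0.345 percentage points. The genes higher past a fold change of 2 were 903 with at least 10 counts in every sample, in place of 1381. No list gene past the test changed direction under any alternative, which for the lists were added after the data were seen. The replicate numbers did not pair the libraries: same-numbered libraries correlated by −0.021 to 0.042 in their deviations from the group means, and WT replicates 2 and 3 correlated best with another number. The replicate block moved the calls past a fold change of 2 to 1316 lower and 1360 higher genes, and it changed no other call among the 10. Low counts limit Kdm4d, Setdb2 and the germline genes.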
